A study of Mus musculus with 12 samples.

Results

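The 8 genes described here are outputs of the circadian clock in liver: Dbp, Tef, Hlf, Nfil3, Gm129, Usp2, Wee1 and Tspan4. They were taken by name from the 19012 gene symbols of the data, with the transcript of the longest exon length for each symbol, and all 8 had values. RNA sequencing had been done on 12 mouse livers and liver tumors in 3 groups of 4. The groups were wild-type livers (wt), livers of mice labeled as E2f7 and E2f8 double knockouts (E2F7/8 DKO), and liver tumors of DKO mice. E2f7 and E2f8 encode repressing members of the E2F family. Each DKO tumor shares an animal code with the DKO liver of the same number, and the 4 wild-type livers have codes of their own. By these codes each DKO liver had a tumor beside it, so genotype and tumor bearing cannot be told apart in that group. The sources used here give neither strain, sex, age, treatment, how the genes were deleted nor the time of day of collection.

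Clock genes cycle with the time of day. The CLOCK and BMAL1 proteins (BMAL1 is encoded by Arntl) activate genes through E-box sequences, and the products of some of these genes, the period, cryptochrome and REV-ERB proteins, repress the cycle in turn. Dbp, Tef and Hlf encode the PAR bZIP factors, named for a region rich in proline and acidic amino acids before a basic leucine zipper, and they activate genes that carry a D-box. Nfil3 encodes a bZIP repressor that binds the same D-box, and in the liver Dbp and Nfil3 are known to peak at opposite times of day.

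Gm129 is now named Ciart and encodes a repressor of CLOCK and BMAL1. Usp2 encodes a ubiquitin-specific protease, Wee1 a kinase that holds back the mitotic kinase CDK1, and Tspan4 a tetraspanin of the cell membrane. In mm9, with positions as deposited, Dbp lies on chromosome 7 from 52960601 to 52965520, Tef on chromosome 15 from 81641902 to 81657292, Hlf on chromosome 11 from 90197848 to 90252230, and Nfil3 on chromosome 13 from 53062577 to 53076407. Gm129 lies on chromosome 3 from 95682427 to 95686150 and Usp2 on chromosome 9 from 43875103 to 43903709. Wee1 (117265572 to 117286812) and Tspan4 (148661138 to 148679320) lie on chromosome 7. Each value covers all exons of the gene's transcript.

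The sequences before the gene starts show which of the genes carry the letters of these boxes near the start. Promoter windows of RefSeq (GRCm38.p6), from 250 bases before to 50 bases after a start, were found for 7 of the 8 genes, in 9 windows, and Wee1 had none. The E-box was searched as CACGTG, which reads the same on both strands, the D-box as TTANGTAA and an E2F site as TTTNGCGC, each on both strands. The E-box letters were in 4 of the 9 windows, those of Gm129, both of Tef and 1 of 2 of Tspan4, against 7.15% of all 32851 windows. D-box letters (2.32% of all windows) and E2F letters (1.38%) were in 0 of the 9. Of 12 core clock genes with a window, 3 had E-box letters (Per1, Cry1 and Bhlhe41), 1 had E2F letters (Csnk1e) and 1 had D-box letters (Per3, with 2 matches). Printed here are the 250 bases before the start for Gm129, which has 3 E-boxes, for the 2 starts of Tef, and for Per3, with the matched letters in capitals.
Gm129 (Ciart), chr3:95882229-95882478, minus strand: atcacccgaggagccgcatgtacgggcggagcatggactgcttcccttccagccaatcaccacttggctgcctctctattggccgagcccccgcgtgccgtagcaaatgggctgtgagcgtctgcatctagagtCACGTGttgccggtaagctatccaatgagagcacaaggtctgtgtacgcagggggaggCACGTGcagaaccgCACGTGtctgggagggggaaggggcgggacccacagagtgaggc
Tef, upstream start, chr15:81802423-81802672, plus strand: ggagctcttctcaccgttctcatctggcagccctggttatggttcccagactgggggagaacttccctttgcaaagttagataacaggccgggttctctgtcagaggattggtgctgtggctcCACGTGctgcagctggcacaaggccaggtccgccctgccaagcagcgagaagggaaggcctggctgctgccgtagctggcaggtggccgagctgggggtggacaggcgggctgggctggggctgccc
Tef, downstream start, chr15:81811164-81811413, plus strand: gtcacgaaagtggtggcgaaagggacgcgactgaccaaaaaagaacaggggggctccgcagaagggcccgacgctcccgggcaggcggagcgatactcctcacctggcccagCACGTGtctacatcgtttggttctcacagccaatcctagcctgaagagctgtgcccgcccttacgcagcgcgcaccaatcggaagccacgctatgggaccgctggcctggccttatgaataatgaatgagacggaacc
Per3, chr4:151044666-151044915, minus strand: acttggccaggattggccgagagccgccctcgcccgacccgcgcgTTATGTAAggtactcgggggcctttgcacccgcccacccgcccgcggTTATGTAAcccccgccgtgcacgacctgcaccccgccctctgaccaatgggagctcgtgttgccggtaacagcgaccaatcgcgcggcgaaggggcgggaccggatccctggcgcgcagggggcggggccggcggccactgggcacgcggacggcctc
The E-boxes of Gm129 begin 116, 58 and 44 bases before its start, and those of Tef 127 bases before the upstream and 138 bases before the downstream start. The D-boxes of Per3 begin 205 and 158 bases before its start. A match describes the letters in the window and not binding.

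Levels are given as RPKM, that is, reads per kilobase of exon in each M (mega) reads, and so can be compared between genes. Depth ranged from 7.985 to 15.956 M reads, and wild-type liver 1 was the shallowest. Names of the deposited data also carry a tag whose meaning is not stated. Tag L02 is on the DKO livers and on wild-type livers 1 and 2, and tag L03 on the DKO tumors and on wild-type livers 3 and 4. E2f7 was at 0.103 to 0.2 RPKM in wild-type livers, 0.211 to 0.4 in livers of DKO mice and 0.0365 to 0.259 in tumors. E2f8 was at 1.66 to 4.3, 2.8 to 20.8 and 1.66 to 12.2 RPKM. Which part of either gene was deleted is unknown here, and the levels are therefore no check of the genotype. All 6 hepatocyte markers were present in every library, with summed levels of 45150.5 to 71256.7 RPKM in wild-type livers, 36230.8 to 108981.9 in livers of DKO mice and 68447.0 to 125138.9 in tumors. Most of this sum was Alb, with means of 46019.1 RPKM in wild-type livers and 80945.3 in tumors. The means of Apoa1 (8693.1 and 10021.5), Serpina1a (261.8 and 345.1) and Hnf4a (151.5 and 168.4) were also higher in tumors. Those of Ttr (4475.7 and 2400.5) and Cps1 (793.5 and 520.5) were lower in tumors.

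Among wild-type livers the highest means were those of Dbp (66.7 ± 31.1 RPKM, SD, n = 4), Tef (56.9 ± 15.6) and Tspan4 (55 ± 17.9). Usp2 (16.2 ± 7.9), Hlf (13.1 ± 2.27) and Wee1 (11 ± 4.87) followed, then Nfil3 (6.79 ± 3.07) and Gm129 (6.58 ± 3.96). Neighbours in this order overlapped, except Tspan4 and Usp2. In DKO livers the order was Tspan4 (99.7 ± 26.4), Tef (40.8 ± 12.1), Nfil3 (21.5 ± 13.5), Dbp (15.1 ± 13.4), Usp2 (8.91 ± 3.64), Hlf (8.56 ± 1.12), Wee1 (8.03 ± 5.47) and Gm129 (1.76 ± 1.76). Here the neighbours Tspan4 and Tef did not overlap, and Dbp, first in wild-type livers, came after Nfil3. In DKO tumors it was Tspan4 (67.9 ± 15.3), Tef (31.2 ± 18.5), Dbp (15.5 ± 16.3), Nfil3 (11.7 ± 3.15), Wee1 (10.3 ± 4.36), Usp2 (8.54 ± 7.42), Hlf (7.53 ± 3.09) and Gm129 (1.64 ± 1.65), the last 2 without overlap. Within both DKO groups the SD of Dbp and Gm129 was about as large as the mean.

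**Figure D1:**
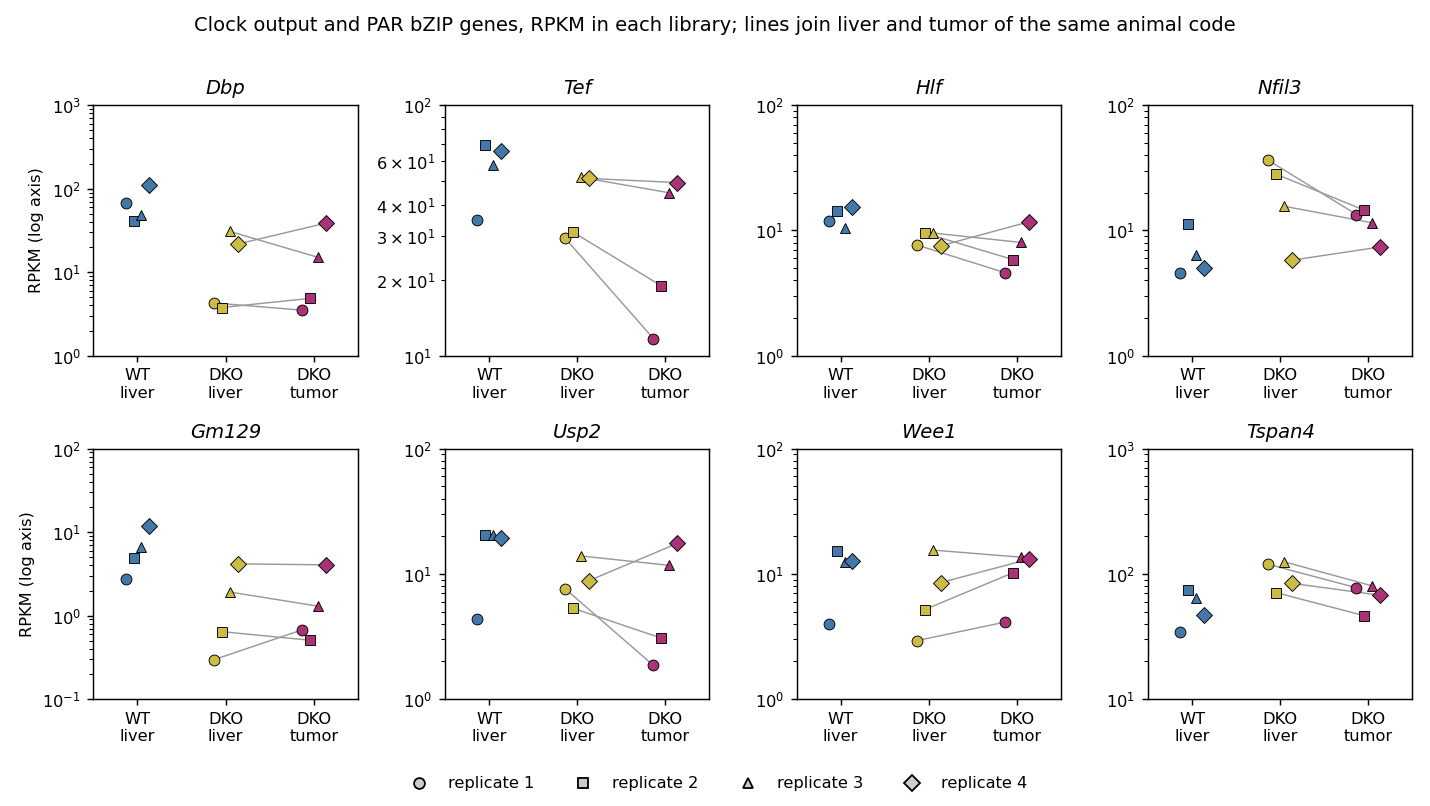
RPKM (log axis) of each of the 8 genes in wild-type livers, DKO livers and DKO tumors. Each point is 1 library, symbols give the replicate number, and lines join the liver and tumor of 1 animal code; for Dbp every DKO library, at 3.51 to 38.6 RPKM, lies below the lowest wild-type liver at 40.7.

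The PAR bZIP gene Dbp was at 68.0, 40.7, 48.2 and 110.0 RPKM in wild-type livers 1 to 4. It was at 4.28, 3.77, 30.8 and 21.7 RPKM in DKO livers and at 3.51, 4.85, 15.1 and 38.6 RPKM in DKO tumors 1 to 4. Animals 1 and 2 were low in both liver and tumor, animals 3 and 4 were intermediate, and no DKO library reached the wild-type range. Tef, its close relative, was at 34.7, 69.6, 57.8 and 65.5 RPKM in wild-type livers, at 29.4, 31.1, 51.5 and 51.0 in DKO livers, and at 11.7, 19.0, 44.7 and 49.1 in tumors. Again animals 1 and 2 were the lowest in both tissues, but wild-type liver 1 overlapped the DKO libraries. Hlf, the third PAR bZIP gene, varied less: it was at 12, 14.3, 10.4 and 15.5 RPKM in wild-type livers, 7.65, 9.52, 9.54 and 7.54 in DKO livers, and 4.6, 5.85, 8.02 and 11.7 in tumors. All 4 DKO livers and 3 of the 4 tumors were below every wild-type liver for Hlf, and tumor 4 was not.

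The D-box repressor gene Nfil3 was higher on average in both DKO groups than in wild-type livers, and highest in animals 1 and 2. It was at 4.53, 11.2, 6.38 and 5.01 RPKM in wild-type livers, at 36.3, 28.1, 15.6 and 5.79 in DKO livers, and at 13.4, 14.5, 11.5 and 7.38 in tumors. DKO animal 4 lay inside the wild-type range in both tissues, and the other 3 animals lay above it. The summed level of 8 T, B and NK cell markers, cells in which Nfil3 is also used, was 1.87 to 6.64 RPKM in wild-type livers, 4.55 to 10.9 in livers of DKO mice and 1.33 to 6.95 in tumors, with 2 of the 8 markers at 0 in some libraries. Their part in the values of Nfil3 was not tested.

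The CLOCK and BMAL1 repressor gene Gm129 had the lowest mean of the 8 in each group. It was at 2.78, 4.87, 6.63 and 12 RPKM in wild-type livers, at 0.296, 0.643, 1.92 and 4.17 in DKO livers, and at 0.674, 0.508, 1.3 and 4.06 in tumors. Only animal 4 reached the wild-type range, in both tissues. Read numbers behind these values were 31 to 239 in wild-type livers, 5 to 54 in livers of DKO mice and 9 to 85 in tumors, so the lowest values carry a large counting error.

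Usp2, the protease gene, was at 4.34, 20.3, 20.6 and 19.4 RPKM in wild-type livers, at 7.59, 5.31, 13.9 and 8.84 in DKO livers, and at 1.86, 3.07, 11.7 and 17.5 in tumors. Without wild-type liver 1, the other 3 wild-type livers were above every DKO library. Wee1, the CDK1-restraining kinase gene, was at 3.99, 15.2, 12.4 and 12.6 RPKM in wild-type livers, at 2.93, 5.19, 15.5 and 8.51 in DKO livers, and at 4.12, 10.2, 13.6 and 13.1 in tumors. Wild-type liver 1 and the DKO liver and tumor of animal 1 were the lowest of their groups, and the groups overlapped throughout. The tetraspanin gene Tspan4 was at 34.2, 74.7, 64.0 and 47.2 RPKM in wild-type livers, at 119.2, 70.8, 124.9 and 84.0 in DKO livers, and at 77.5, 46.3, 80.1 and 67.5 in tumors. Tspan4 was lowest in animal 2 in both tissues, and wild-type liver 2 overlapped the DKO livers. The deposited transcripts of Tef (2) and Usp2 (3) differed by at most 35 and 23 reads in a library, since each counts the exons they share, so their isoforms are not told apart here.

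**Figure D2:**
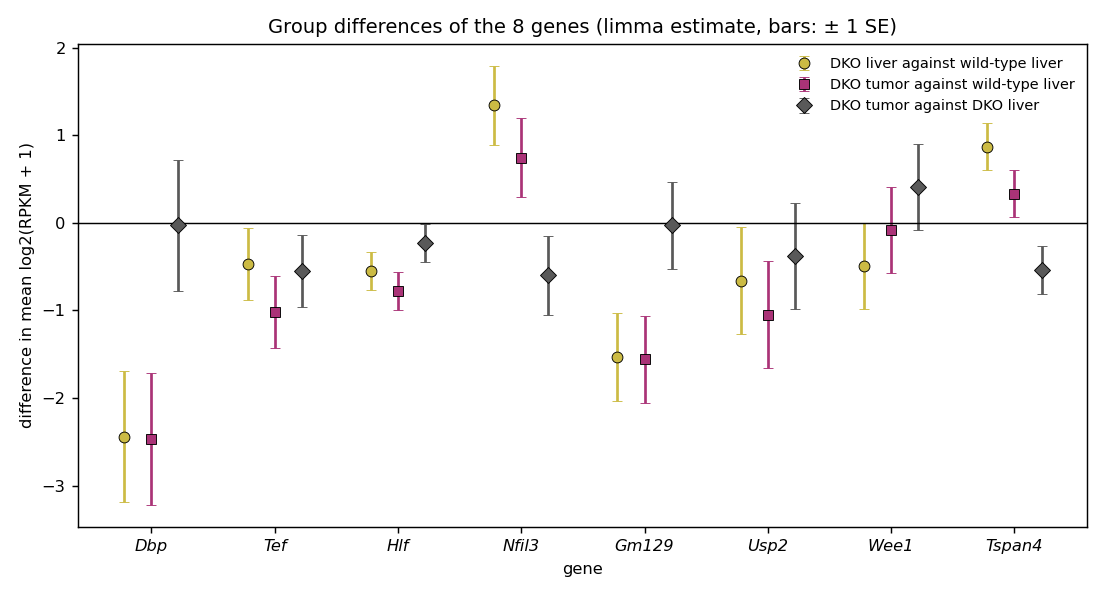
Differences between group means of log2(RPKM + 1) for the 8 genes in the 3 comparisons, as limma estimates with bars of ± 1 SE. Dbp lies at −2.44 and −2.47 against wild-type liver and at −0.03 between tumor and DKO liver, and no difference passed adjustment over all genes.

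The first comparison set DKO liver outside the tumors against wild-type liver. In this comparison 0 of the 8 genes passed limma's test at an adjusted p of 0.05, as did 0% of all 11351 genes tested. At an unadjusted p under 0.05, 3 were lower (Dbp, Hlf and Gm129; 3.24% of all genes) and 2 higher (Nfil3 and Tspan4; 9.16%), 12.4% of genes in all. With voom on reads recovered from the RPKM, 0 passed and 5 had an unadjusted p under 0.05 (11.2% of genes). The difference in mean log2(RPKM + 1) was −2.44 for Dbp (SE 0.75, limma adjusted p = 0.295), −1.53 for Gm129 (SE 0.5, adjusted p = 0.312) and −0.55 for Hlf (SE 0.22, adjusted p = 0.37). It was 1.34 for Nfil3 (SE 0.45, adjusted p = 0.315) and 0.87 for Tspan4 (SE 0.27, adjusted p = 0.295). Differences of Tef (−0.47), Usp2 (−0.66) and Wee1 (−0.49) were close to their SEs of 0.41, 0.61 and 0.49. The offset of 1 understates differences of genes with low values, Gm129 above all.

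Dbp and Hlf were lower in every DKO liver than in any wild-type liver, as were 1.96% of all genes, and 0 of the 8 were higher without overlap (5.62%; 7.59% in both directions). Over the 8 genes the median difference was −0.52, beside 0.08 over all genes tested. In bulk tissue a smaller share of cells that use a gene and less of its RNA per cell cannot be told apart. Within tag L02, with 2 wild-type livers, the differences were −2.21 for Dbp, −0.57 for Hlf, 1.19 for Nfil3, 0.93 for Tspan4 and −0.98 for Gm129. For Tef, Usp2 and Wee1 they were −0.31, −0.18 and −0.2. Without DKO animals 1 and 2, which stood apart in the clock genes, the difference was −1.23 for Dbp, −0.82 for Gm129, 0.52 for Nfil3 and −0.1 for Tef. It was −0.55 for Hlf and 0.94 for Tspan4. Since these animals were extreme in several of the same genes, smaller or reversed differences without them, here and below, follow in part from that choice.

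The summed level of 6 Kupffer cell and macrophage markers was 68.1 to 195.7 RPKM in wild-type livers, 138.6 to 342.7 in livers of DKO mice and 33.9 to 175.6 in tumors. None of the 6 was at 0 in a library. DKO livers 1 and 3, the highest in Tspan4, were also the highest in these markers (342.7 and 252.6), and wild-type liver 1, the lowest in Tspan4, was the lowest wild-type liver (68.1). DKO tumors 1, 2 and 4, with Tspan4 at 77.5, 46.3 and 67.5 RPKM, were below every wild-type liver in these markers (48.9, 57.3 and 33.9). The part of these cells in the level of Tspan4 was not tested.

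The second comparison set the tumors against normal liver. Against wild-type liver 0 of the 8 genes passed in DKO tumors, where 1.9% of all genes did (limma, adjusted p of 0.05). At an unadjusted p under 0.05, 4 were lower (Dbp, Tef, Hlf and Gm129; 10.4% of all genes) and 0 higher (8.77%; 19.2% in both directions). With voom 0 passed (1.68% of genes) and 4 had an unadjusted p under 0.05 (18.9%). Hlf came closest, with a difference of −0.78 (SE 0.22, limma adjusted p = 0.0873), and passed without DKO tumor 4 (−0.99, adjusted p = 0.0378). The adjusted p of Hlf ran from 0.0358 to 0.489 over all alternatives, and the 2 other fits that passed it rescaled the libraries. Dbp differed by −2.47 (SE 0.75, adjusted p = 0.106), Gm129 by −1.56 (SE 0.5, adjusted p = 0.122) and Tef by −1.02 (SE 0.41, adjusted p = 0.197).

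Usp2 (−1.05, SE 0.61), Nfil3 (0.74, SE 0.45), Tspan4 (0.33, SE 0.27) and Wee1 (−0.08, SE 0.49) had adjusted p of 0.375, 0.405, 0.559 and 0.953 with limma. Dbp was lower in every tumor than in any wild-type liver, as were 6.32% of all genes, and 0 of the 8 were higher without overlap (5.57%; 11.9% in both directions). The median over the 8 genes was −0.9, beside −0.02 over all genes. Within tag L03, with 2 wild-type livers, the differences were −2.7 for Dbp, −0.76 for Hlf, −2.1 for Gm129, −1.18 for Tef, −1.54 for Usp2, 0.89 for Nfil3, 0.27 for Tspan4 and −0.37 for Wee1. Without DKO animals 1 and 2 they were −1.32 for Dbp, −0.38 for Hlf, −1.01 for Gm129, −0.23 for Tef, 0.47 for Nfil3, and 0.04 for Usp2 and 0.38 for Wee1, both of the opposite sign. The 2 comparisons with wild-type liver share the same 4 wild-type livers.

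The third comparison set the tumors against the livers with the same animal codes. Between these groups 0 of the 8 genes passed limma's test, as against 0.00881% of all genes, and 0 had an unadjusted p under 0.05 (16.1% of all genes), and the same held with voom (0 and 0; 0.00881% and 17% of genes). Groups did not overlap for 0 of the 8 genes, as against 6.2% of all genes (2.12% higher in tumors and 4.08% lower). Dbp was 15.5 RPKM on average in tumors and 15.1 in DKO livers (difference −0.03, SE 0.75, adjusted p = 0.991), and Gm129 1.64 and 1.76 (−0.03, SE 0.5, adjusted p = 0.983). With other scalings of the libraries the small differences of both were 0 or positive. This fit does not use the shared animals. With the animal as a block, the SE was 0.29 for Dbp and 0.16 for Gm129 (adjusted p = 0.976 and 0.947), and 0 of the 8 and 71 of all genes passed. Tumors carry 1 tag and DKO livers the other, so tag and tissue cannot be told apart in this comparison.

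Within animals, Tspan4 was lower in the tumor than in the liver of all 4 animals, by log2 differences of −0.61, −0.6, −0.63 and −0.31 (limma −0.54, SE 0.27, adjusted p = 0.35). With the animal as a block, its adjusted p was 0.239. Tef was also lower in 4 of 4 tumors (−1.26, −0.68, −0.2 and −0.05), most in animals 1 and 2. Nfil3 differed by −1.37, −0.9, −0.42 and 0.3, and Usp2 by −1.58, −0.63, −0.23 and 0.91. Dbp differed by −0.23, 0.29, −0.98 and 0.81, with no common direction. Hlf differed by −0.63, −0.62, −0.22 and 0.57, Gm129 by 0.37, −0.12, −0.34 and −0.03, and Wee1 by 0.38, 0.85, −0.17 and 0.57. All these differences use RPKM without rescaling. By median-of-ratios scaling, the relative level of a typical gene was 0.7588 in tumor 1 and 1.085 in DKO liver 1. For animals 2, 3 and 4 it was 0.9383 and 0.9892, 1.118 and 1.287, and 1.071 and 0.9161. Lower values in tumor 1 above all were thus in part shared by genes at large.

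Most of the spread of Gm129, Dbp and Wee1 in DKO libraries lay between animals, a larger part than in most genes tested. The sum of squares of log2(RPKM + 1) over the 8 DKO libraries was split into a part between the 4 animals, a part between tumor and liver, and a rest. The part between animals was 96.8% for Gm129, 92.8% for Dbp, 85.3% for Wee1, 73.2% for Tef, 68.7% for both Nfil3 and Usp2, 56.5% for Tspan4 and 40.7% for Hlf. The median over all genes tested was 42.8%, and 0.335% of all genes had a part at least as large as that of Gm129 and 1.59% as that of Dbp. This share of genes was 5.49% for Wee1, 14.4% for Tef, 18.7% for Nfil3, 18.8% for Usp2, 32.6% for Tspan4 and 52.9% for Hlf. The part between tumor and liver was 0.0116% for Dbp and 0.0498% for Gm129, but 41% for Tspan4, with a median of 14.3% over all genes tested. With more animals than tissues, the part between animals tends to be the larger for any gene. These are descriptions of 4 animals, with no test.

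**Figure D3:**
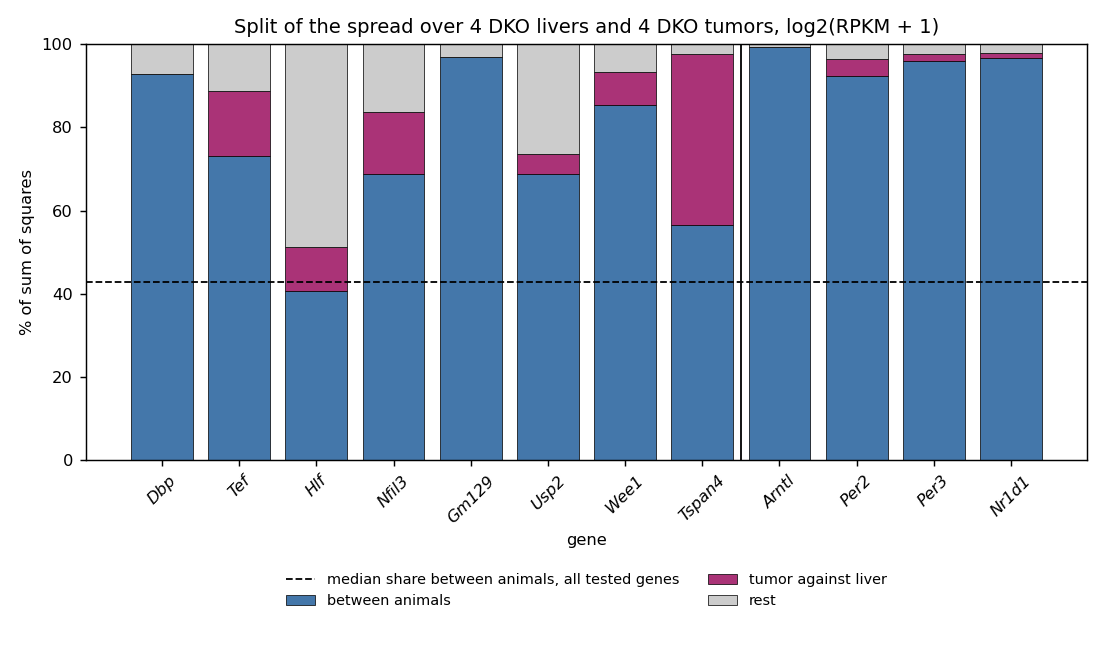
Percent of the sum of squares of log2(RPKM + 1) over 4 DKO livers and 4 DKO tumors that lay between animals, between tumor and liver, and in the rest, for the 8 genes and, right of the line, 4 core clock genes. The part between animals is 92.8% for Dbp and 99.2% for Arntl, against a median of 42.8% over all genes tested (dashed line).

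The balance of D-box activator and repressor genes differed widely between libraries. The summed level of Dbp, Tef and Hlf was 136.7 ± 36.5 RPKM in wild-type livers, 64.5 ± 25.4 in livers of DKO mice and 54.2 ± 36.6 in tumors (SD, n = 4 each). Divided by Nfil3 in the same library, the sum was 25.3, 11.1, 18.3 and 38.1 in wild-type livers. The ratio was 1.14, 1.58, 5.87 and 13.9 in DKO livers and 1.48, 2.04, 5.91 and 13.5 in tumors of animals 1 to 4. Liver and tumor of an animal were thus close to each other, while animals 1 and 4 were far apart in both tissues. Animal 4 reached the wild-type range of this ratio. Dbp made up 32.7 to 59.3% of the sum in wild-type livers, 8.48 to 33.5% in DKO livers and 16.3 to 38.9% in tumors, and Tef had the largest share in every DKO library.

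**Figure D4:**
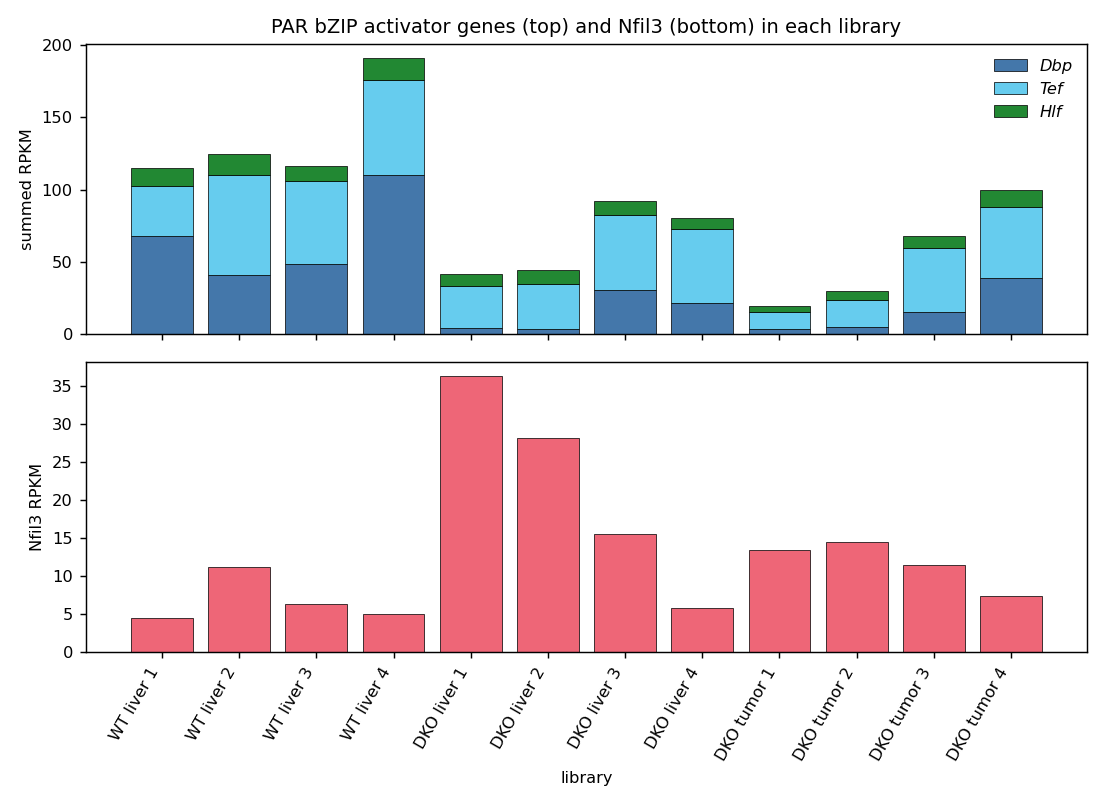
Summed RPKM of Dbp, Tef and Hlf (top, stacked bars) and RPKM of Nfil3 (bottom) in each of the 12 libraries. The DKO livers of animals 1 and 2 have sums of 41.4 and 44.4 RPKM beside Nfil3 at 36.3 and 28.1, whereas wild-type liver 4 has 191.0 beside 5.01.

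The core clock genes moved with the 8 genes from animal to animal. Arntl, which encodes BMAL1, was at 1.6, 0.833, 0.84 and 0.484 RPKM in wild-type livers, at 11.2, 9.95, 1.73 and 1.19 in DKO livers, and at 9.24, 10.9, 2.26 and 1.1 in tumors. Animals 1 and 2, lowest in Dbp, were highest in Arntl in both tissues. Npas2, a relative of Clock, was at 0.15, 0.0747, 0.141 and 0.168 RPKM in wild-type livers, at 0.475, 0.811, 0.0777 and 0.103 in DKO livers, and at 3.1, 2.09, 0.151 and 0.287 in tumors, and did not pass the filter on low values.

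Nr1d1, which encodes REV-ERB alpha, a repressor of Arntl and Nfil3, was at 51.3, 13.0, 9.48 and 35.4 RPKM in wild-type livers. It was at 4.03, 1.86, 7.17 and 11.7 in DKO livers and at 2.84, 1.38, 5.16 and 14.1 in tumors, lowest in animals 1 and 2. The period gene Per3 was at 2.97, 4.89, 6.02 and 7.34 RPKM in wild-type livers, at 0.82, 1.74, 5.32 and 4.0 in DKO livers, and at 0.853, 1.18, 3.65 and 4.05 in tumors, again lowest in animals 1 and 2. Per2 was at 1.29, 5.88, 4.78 and 4.28 RPKM in wild-type livers, at 2.32, 4.66, 9.05 and 7.02 in DKO livers, and at 2.45, 3.35, 8.23 and 4.66 in tumors, and was highest in animal 3. Of 17 core clock genes, 16 were tested and 0 passed in any of the 3 comparisons. Of the tested genes, Bhlhb2 (now Bhlhe40), a repressor in the clock, had the highest mean. Bhlhb2 was at 58 RPKM on average in wild-type livers, at 71 in DKO livers and at 61.9 in tumors. At an unadjusted p under 0.05 there were 6 in DKO liver against wild-type liver (limma), 8 in DKO tumor against wild-type liver and 2 between tumor and DKO liver, beside 12.4%, 19.2% and 16.1% of all genes. How far the core clock levels, or the time of day, account for the 8 genes was not tested.

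**Figure D5:**
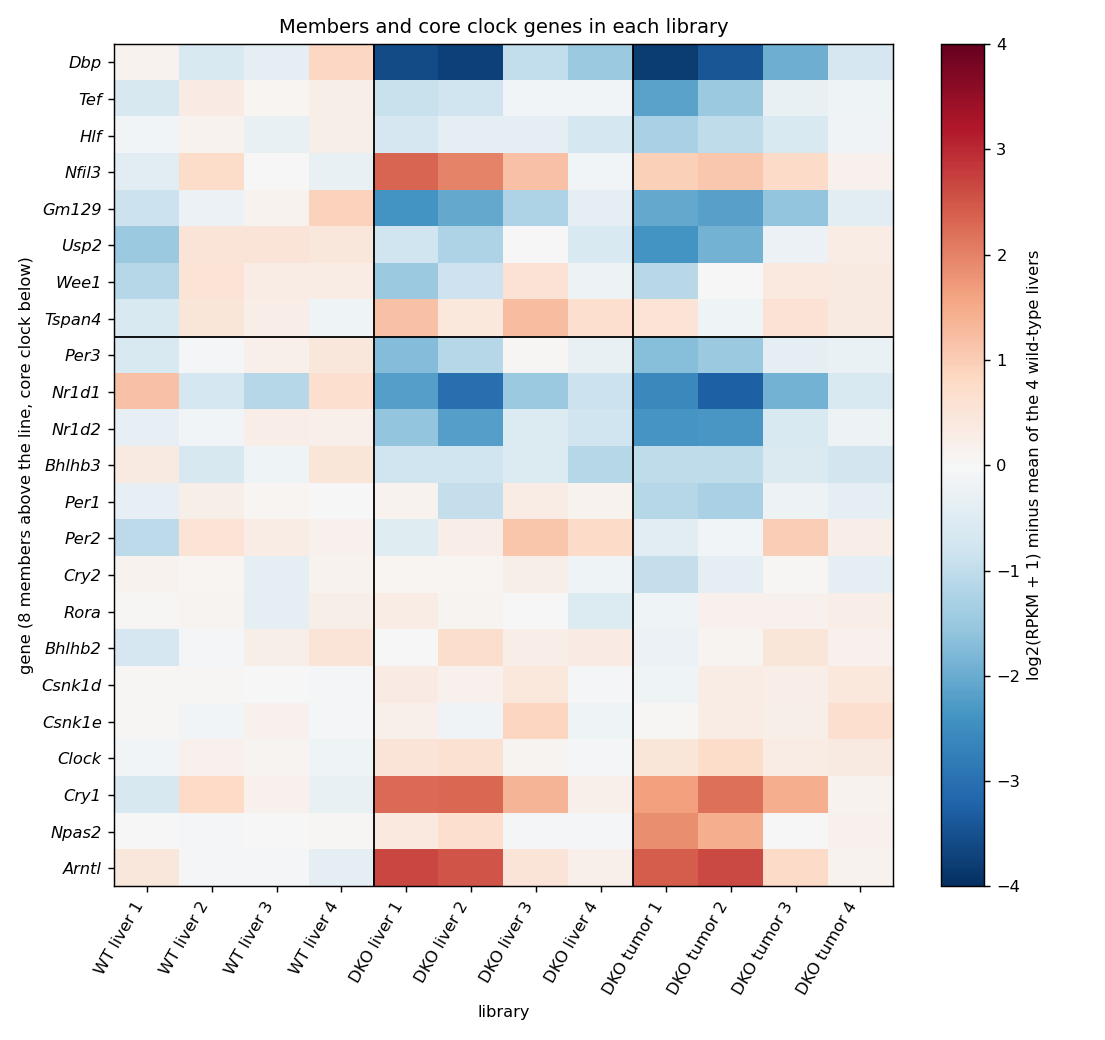
Difference of log2(RPKM + 1) from the mean of the 4 wild-type livers for the 8 genes (above the line) and 15 core clock genes (below) in each of the 12 libraries. DKO animals 1 and 2 are dark blue for Dbp and red for Arntl in both liver and tumor, with Dbp at 3.51 to 4.85 RPKM and Arntl at 9.24 to 11.2.

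Genes that follow the clock or the D-box in liver were counted from lists of their own. Of 8 genes known as PAR bZIP targets, 1 rose in DKO tumors against wild-type livers (1.23% of all genes) and 0 fell (0.67%), with a median difference of −0.59. The gene that rose in tumors was Cyp2a4, a P450 gene nearly identical to Cyp2a5 whose reads are therefore uncertain. Its level was 12 ± 3.1 RPKM in wild-type livers and 208.8 ± 70 in tumors (difference 3.99, SE 0.65, limma adjusted p = 0.0181). In DKO livers 1 to 4 Cyp2a4 was at 9.64, 121.6, 97.9 and 122.2 RPKM. Against wild-type liver this was a difference of 2.32 (SE 0.65, limma adjusted p = 0.283). Of 13 other rhythmic liver genes, 0 passed in any comparison, and 4 had an unadjusted p under 0.05 in each of the 2 comparisons with wild-type liver (limma), beside 12.4% and 19.2% of all genes. The 2 with the highest means were Upp2, a uridine phosphorylase gene, at 387.0 RPKM in wild-type livers, 156.0 in livers of DKO mice and 112.3 in tumors, and Insig2, a regulator of sterol synthesis, at 61.5, 87.8 and 84.0. Differences from wild-type liver were −1.18 (SE 0.59) and −2.04 (SE 0.59) for Upp2 and 0.42 and 0.43 (SE 0.39 each) for Insig2.

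Because Wee1 acts on CDK1, 9 genes of CDK1 control at the entry into mitosis were set beside it. Of the 9, 8 were tested and 0 passed in any comparison. In DKO tumors against wild-type livers all 8 tested had positive differences and an unadjusted p under 0.05 (limma, 8.77% of all genes), with a median of 0.85. Of these, 7 were higher without overlap (5.57% of all genes), while Wee1 differed by −0.08. Ccnb1 (0.0541 to 0.254 RPKM in wild-type livers, 1 to 7 reads) and Pkmyt1 (0.172 to 0.491, 5 to 9 reads) reached the filter only through DKO libraries. For both, higher levels in DKO groups were therefore favored by the filter. Plk1 rested on 3 to 15 reads in wild-type livers and reached 0.5 RPKM only in wild-type liver 2 (0.532). The filter thus favored higher DKO levels of Plk1 too. Cdc25b, under 0.5 RPKM in wild-type liver 1 (0.405), also reached the filter with the help of DKO libraries. Ccna2, the cyclin A2 gene, was at 1.55 RPKM on average in wild-type livers and 5.02 in tumors (difference 1.12, SE 0.33, adjusted p = 0.0961). The gene of CDK1 itself, listed as Cdc2a, was at 1.57 and 4.38 RPKM (1.02, SE 0.39, adjusted p = 0.183). Both were higher on average in tumors, whereas Wee1 was at 11 and 10.3 RPKM.

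For each of the 8 genes, the genes most like it were ranked by Pearson's r of log2(RPKM + 1) over the 12 libraries, among genes with a mean of at least 5 RPKM. The libraries include liver and tumor of the same 4 animals, so r is a description only. For Dbp these were Nr1d2 (r = 0.94), which encodes REV-ERB beta, Dcun1d4 (0.94) and Hif1a (0.92), and for Gm129 Hif1a (0.93), Dcun1d4 (0.92) and Dbp (0.91). Tef was most like Usp2 (0.93), Upp2 (0.92) and Tmem18 (0.91), and Usp2 most like Tef (0.93), Epb4.1 (0.93) and Ccny (0.91). Nfil3 was most like Pnrc1 (0.96), the cryptochrome gene Cry1 (0.93) and Dapk1 (0.92).

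Hlf was most like the metabolic genes Dgat2 (0.94), Acsm5 (0.94) and Cml2 (0.92), Wee1 most like Ccnd1 (0.93), Pphln1 (0.92) and Srp72 (0.91), and Tspan4 most like Acp5 (0.9), Fcer1g (0.89) and Grn (0.89). The most opposite genes were 1110067D22Rik for Dbp (r = −0.93), Pold4 for Tef (−0.87), 5830417C01Rik for Hlf (−0.84) and Stard4 for Nfil3 (−0.83). They were Rnf144b for Gm129 (−0.93), Cldn1 for Usp2 (−0.87), Insig2 for Wee1 (−0.91) and Arhgap12 for Tspan4 (−0.84). Among these nearest genes, Tef and Usp2 each led the other's, Dbp was among those of Gm129, and the genes nearest to Dbp, Hlf, Nfil3, Wee1 and Tspan4 held none of the 8.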

How the data were processed

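The authors deposited RPKM per RefSeq transcript for each of the 12 libraries. Per the labels, polyadenylated RNA was used for SOLiD libraries, and the submitters' processing notes name BWA and mm9 without versions or roles. The counting tool, strand and filters are not given in the sources used here. Value times exon length was a whole number of reads for nearly all values (tolerance 0.05 of a read), which gave the depth.

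The 11351 genes that reached 0.5 RPKM in 4 or more libraries were tested on log2(RPKM + 1) over the 12 libraries, with a mean per group, in limma 3.58.1 (R 4.3.3) with a trend and robust shrinkage, two-sided, with Benjamini-Hochberg adjustment over all of them. The fits were tested on simulated data. Members and lists were chosen with earlier results of these data known. Named list genes are those past the threshold, or else the 2 with the highest mean. 1 gene this rule would name is not reported here. Core clock genes Arntl, Npas2, Per2, Per3 and Nr1d1 are given in every library. Alternatives covered scaling, offset, filter, shrinkage, libraries, tags, blocks, voom and transcripts. Liver and tumor of the same number share an animal code, and their deviations from group means correlated over genes with r of 0.12, 0.35, 0.37 and 0 for animals 1 to 4. The highest r of each tumor with a DKO liver of another number was 0.15, 0.01, −0.05 and 0.09. For animals 1 and 4 the pairing therefore rests on the code alone. Python 3.11.15, pandas 2.3.3 and matplotlib 3.10.9 were used. RPKM give 1 library per animal and tissue, and p-values measure the spread between these libraries. Reads carry no molecular identifiers, so read numbers describe counting error only.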

Additional observations from a re-analysis of the deposited data

Results flagged for a closer look

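In 24 groups of 4 libraries (8 genes in 3 groups), 2 held a library far from the other 3, where chance flags about 1 in 20 groups. The 24 groups reuse the same 12 libraries and so are not independent. In both flagged groups the library was wild-type liver 1. Its Usp2 was at 4.34 RPKM, against 19.4 to 20.6 in the other 3 wild-type livers. Its Wee1 was at 3.99 RPKM, against 12.4 to 15.2. Without this library the difference of DKO liver from wild-type liver was −1.16 for Usp2 (SE 0.56, limma adjusted p = 0.568) and −0.87 for Wee1 (SE 0.46, adjusted p = 0.59). For DKO tumor it was −1.54 (SE 0.56, adjusted p = 0.264) and −0.46 (SE 0.46, adjusted p = 0.732).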

How the results depend on the processing

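Over 25 alternatives each, 0 of the 8 genes passed when DKO liver was set against wild-type liver, and over 23 when DKO tumor was set against DKO liver. In DKO tumor against wild-type liver 1 passed with median-of-ratios scaling and 1 with quantile normalization (both Hlf), and 1 with the replicate number as a block (Gm129, adjusted p = 0.0123); leaving out 1 library gave 0 to 1. The wild-type livers share only a number with the DKO samples. The 2 rescalings moved the median of all genes in DKO tumor against DKO liver from −0.09 to 0.02 and 0.01. The cause of these changes was not tested.

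Signs turned for 24 values of single genes. In DKO tumor against DKO liver, Dbp was 0.09 and Gm129 0.01 with median-of-ratios scaling, and 0.04 and 0.0 with quantile normalization. Gm129 was 0.03 with an offset of 0.1 and 0.11 with voom. Leaving out 1 library gave −0.63 to 0.46 for Dbp, −0.41 to 0.34 for Gm129, and −0.84 to 0.06 for Usp2. In DKO tumor against wild-type liver it gave −0.46 to 0.26 for Wee1. Without DKO animals 1 and 2, Wee1 was 0.18 in DKO liver and 0.38 in tumor against wild-type liver, Usp2 0.04 in tumor against wild-type liver, and between tumor and DKO liver Hlf was 0.17 and Usp2 0.34.

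The number of genes changed in DKO tumor against wild-type liver was 216. It was 598 with median-of-ratios scaling, 478 with quantile normalization, 1 without a filter, 128 with the replicate block, 10 without DKO animals 1 and 2, 3 with the tag as a covariate and 25 within tag L03. Leaving out 1 library gave 16 to 413: 21, 83 and 16 without wild-type livers 1, 2 and 4, and 37, 20 and 413 without tumors 1, 2 and 3. In DKO tumor against DKO liver it was 1, and 24 with quantile normalization, 2 without a filter, 0 with a filter of 2 RPKM, 55 with the 8 libraries alone, 71 with the replicate block and 0 without DKO animals 1 and 2. Leaving out 1 library gave 1 to 363: 3, 2, 31 and 2 without wild-type livers 1 to 4, 20 without DKO liver 3 and 363 without tumor 3. In DKO liver against wild-type liver it was 0, and 1 each with median-of-ratios scaling, with the 8 libraries alone and without DKO animals 1 and 2. Leaving out 1 library gave 0 to 2.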

Other observations

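Wild-type liver 1 differed from the other 3 wild-type livers in further rhythmic genes, chosen after their values were seen. Rgs16, a regulator of G-protein signaling, was at 79.3 RPKM there and at 13.9, 13.3 and 12.2 in wild-type livers 2 to 4. Its Nr1d1 was the highest of the 12 libraries at 51.3 RPKM, and its Per2 the lowest at 1.29. Upp2 was at 145.3 RPKM in it, against 355.5, 517.0 and 530.3. These values have no test.

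Cry1, also chosen after its values were seen, encodes a cryptochrome. It was at 1.58, 5.9, 3.49 and 2.24 RPKM in wild-type livers, at 18.5, 18.8, 9.2 and 3.65 in DKO livers, and at 11.6, 17.5, 10.1 and 3.46 in tumors. Animal 4 lay inside the wild-type range in both tissues, as for Nfil3. For Npas2, the tumors of animals 1 and 2 (3.1 and 2.09 RPKM) were above the livers of the same animals (0.475 and 0.811).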
